A study of Homo sapiens with 22 samples.

Results

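The genes described here are 48 human genes of vesicle traffic between the endoplasmic reticulum (ER) and the Golgi apparatus: coats, the GTPases that load them, tethers, SNAREs and cargo receptors. They were chosen by name for the known functions of their products. The rule uses no measured value, but earlier results of these data were known when it was made. All 48 were found among the 58278 Ensembl gene entries that were counted. Total RNA was sequenced (RNA-Seq), and so were the mRNA fragments covered by ribosomes (Ribo-Seq, footprints), in LN308, an astrocytoma-derived human cell line described as p53-deficient. Within each assay, 3 libraries came from cells given tunicamycin (Tm, 2.5 µg/ml) for 6 h, 3 from cells given tunicamycin for 2 h, 1 from cells given thapsigargin (Tg, 200 nM) for 6 h, 1 from cells given thapsigargin for 2 h, and 3 from untreated cells at 0 h, for which the protocol names the solvent DMSO alone as control. All groups are the same cell line under the same culture conditions, and the labels do not say whether replicates were separate cultures, so p-values measure the spread between these libraries, which may be technical. In bulk samples such as these, fewer cells of a kind and less RNA per cell cannot be told apart.

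Proteins leave the ER in vesicles coated by COPII. The GTPase SAR1, loaded with GTP by PREB (known as SEC12 in yeast), recruits the inner coat of SEC23 and SEC24, in which SEC24 binds cargo, and then the outer cage of SEC13 and SEC31, at exit sites organised by SEC16A, TFG and the MIA proteins. The tether USO1 and SNARE proteins drive fusion with the next compartment, and COPI vesicles, built by coatomer on GTP-loaded ARF, return escaped proteins and receptors to the ER. Tunicamycin blocks N-linked glycosylation and thapsigargin empties the ER of calcium. Both are used to load the ER with unfolded proteins, to which cells respond through the sensors IRE1, ATF6 and PERK. XBP1, the transcription factor made after IRE1 activation, and ATF6 are known to bind the unfolded protein response element (UPRE), whose core letters are TGACGTGG.

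Promoter sequences of RefSeq (GRCh38.p14, 250 bases before to 50 after each annotated start) were in the reference table for 41 of the 48 genes, without SEC24D, MIA2, USO1, ARF4, ARFGAP1, TMED9 and ERGIC1. On either strand, TGACGTGG was found in 9 of these 41 genes, or 22%, against 253 of 27305 gene symbols in the whole table, or 0.927%. The 9 genes belonged to the COPII coat (SEC23A, SEC24A), the exit site organisers (SEC16A), the SNAREs (STX5), the COPI coat (COPA, COPB1, COPB2) and the ARF cycle (ARF1, GBF1), and no cargo receptor was among them. COPB2 held the letters at 2 places. The matches are shown because the letters were found in a larger share of these genes than of all symbols, although 32 of the 41 did not hold them. These shares were not matched for base content, kind of gene or number of windows. A gene could have more than 1 window, with 55 windows for the 41 genes and 35116 for all symbols. Each is printed on the gene's own strand, 5′ to 3′, with up to 16 bases on either side, and the capitals mark TGACGTGG or its reverse complement:
SEC23A, chr14:39103216-39103255, minus strand: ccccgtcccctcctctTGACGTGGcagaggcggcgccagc
SEC24A, chr5:134648590-134648629, plus strand: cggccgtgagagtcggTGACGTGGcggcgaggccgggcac
SEC16A, chr9:136484702-136484741, minus strand: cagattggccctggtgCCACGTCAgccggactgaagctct
STX5, chr11:62832044-62832083, minus strand: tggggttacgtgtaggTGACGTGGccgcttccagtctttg
COPA, chr1:160343222-160343261, minus strand: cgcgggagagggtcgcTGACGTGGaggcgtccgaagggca
COPB1, chr11:14499836-14499875, minus strand: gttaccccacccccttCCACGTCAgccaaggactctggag
COPB2, upstream match, chr3:139389820-139389859, minus strand: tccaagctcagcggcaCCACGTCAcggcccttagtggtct
COPB2, match at the start, chr3:139389627-139389666, minus strand: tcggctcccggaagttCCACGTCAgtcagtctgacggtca
ARF1, chr1:228082676-228082715, plus strand: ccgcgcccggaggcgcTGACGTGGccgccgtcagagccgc
GBF1, chr10:102245521-102245560, plus strand: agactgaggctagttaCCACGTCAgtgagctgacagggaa

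Counting the annotated start as 0, the match ran from -16 to -9 in both STX5 and ARF1, from -4 to 3 in SEC23A and from -3 to 4 at the second place in COPB2. COPA and GBF1 held it just inside the transcript, from 5 to 12. The ER stress element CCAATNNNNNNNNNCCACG, its variant ERSE-II (ATTGG and CCACG, 1 base apart) and the amino acid response letters TGATGCAA were found in 0 of the 41 genes, and in 0.0916%, 0.0696% and 1.08% of all symbols. The first and second of these share the letters CCACG with the reverse complement of TGACGTGG. A match is a description of letters and not of binding, and no match says only that these letters are absent from this window.

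RNA-Seq libraries held 101371822 to 166586145 counts and Ribo-Seq libraries 4387173 to 29183769 counts, so that a footprint value rests on fewer counts than an mRNA value. All 48 genes passed the filter on low counts in both assays. Replicate 1 stood apart from replicates 2 and 3 in every RNA-Seq group. Chi-square values per degree of freedom, from the counts of replicate 1 against each of them, were 425 and 471 at Tm 6 h, 417 and 522 at Tm 2 h and 531 and 543 in untreated cells, against 25.8, 52.3 and 45.1 between replicates 2 and 3 of the same groups. Mitochondrial mRNA held 0.479% of counts in Tm 6 h replicate 1 and 0.443% in Tm 2 h replicate 1, against 1.06% in untreated replicate 1. In replicates 2 and 3 it held 1.39% and 1.30% at Tm 6 h, 1.61% and 1.54% at Tm 2 h, and 1.18% and 1.34% in untreated cells. The Tg 6 h and Tg 2 h RNA-Seq libraries had 0.492% and 0.587%, also below every untreated library. Untreated replicate 1 of RNA-Seq further had counts in 53489 entries, against 38264 to 40331 in each of the 10 remaining ones, and its scaling factor was 1.46, against 0.904 to 1.06 in the others. It also had less VIM (451 CPM, against 1518 and 1664 CPM in untreated replicates 2 and 3), a filament gene of glioma cells. In Ribo-Seq the same chi-square values were 219 and 217 in untreated cells, against 31.6 between replicates 2 and 3. They were 80.5 and 103 at Tm 2 h, against 52.1, and 55.1 and 86.2 at Tm 6 h, against 64.9. Mitochondrial mRNA held 0.869% of counts in Ribo-Seq untreated replicate 1, against 2.33% and 2.07% in replicates 2 and 3. That library held 29183769 counts, against 8477747 and 9774377 in untreated replicates 2 and 3. Levels are given below as counts-per-million values (CPM), scaled by the trimmed mean of M-values (TMM). Of 12 glial markers, 7 exceeded 1 CPM in every RNA-Seq library, and the 12 had a sum of 1175 to 2978 CPM. This sum includes VIM, at 451, 1518 and 1664 CPM in untreated replicates 1, 2 and 3. Among the defining markers GFAP was low and SOX9, AQP4 and ALDH1L1 were near 0. None of 9 blood markers and none of 4 endothelial markers exceeded 1 CPM in every library, with sums of 0.933 to 4.73 CPM and 0.639 to 5.32 CPM. Of 7 epithelial markers only the keratin KRT18 exceeded 1 CPM in every library, and their sum was 77.3 to 129 CPM at 6 h of tunicamycin, against 47.9 to 69.6 CPM in untreated cells. Its part in the results below was not tested. HSPA5, the main ER chaperone, was at 6892, 12116 and 14698 CPM in the Tm 6 h libraries, against 506, 1008 and 1141 CPM in the untreated libraries. HERPUD1, an ER degradation factor, was at 1039, 962 and 1121 CPM at Tm 6 h, against 36.7, 42.4 and 42.6 CPM in untreated cells. The groups did not overlap for either gene.

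The first question was how the traffic genes changed after 6 h of tunicamycin. Their mRNAs summed to 12831, 10513 and 12121 CPM in the Tm 6 h libraries, against 4869, 6792 and 7155 CPM in the untreated libraries (replicates 1, 2 and 3 in order, here and below). Of the 48, 14 were higher and 0 lower at an adjusted p under 0.05 (edgeR's quasi-likelihood test, Benjamini-Hochberg adjustment over 41130 genes). Of all genes tested, 1.23% were higher and 0.275% lower. Shares and medians of all genes, here and below, were not matched to the expression level of the 48. The filter kept 41130 genes with the thapsigargin libraries, each a group of 1, and 29330 without them. The log2 fold change was positive for 45 of the 48 genes, with a median of 0.89, beside a median of -0.27 over all genes. In 37 of the 48 every Tm 6 h library lay above every untreated library, against 10.5% of all genes. With the replicate number as a block, 29 of the 48 were higher, against 5.06% of all genes. With replicates 2 and 3 alone, whose mitochondrial shares overlapped between the groups, 37 were higher, against 10.6% of all genes, and ERGIC1 was lower, and the medians were 0.72 for the 48 genes and -0.024 for all genes. Without untreated replicate 1 alone, 20 were higher, and the medians were 0.74 for the 48 genes and -0.012 for all genes. Without untreated replicate 2, or without Tm 6 h replicate 3, 6 were higher. No share of all genes stands beside counts from fits without 1 library or on the compared groups only, here and below. None stands beside the calls of ERGIC1 as lower either.

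**Figure D1:**
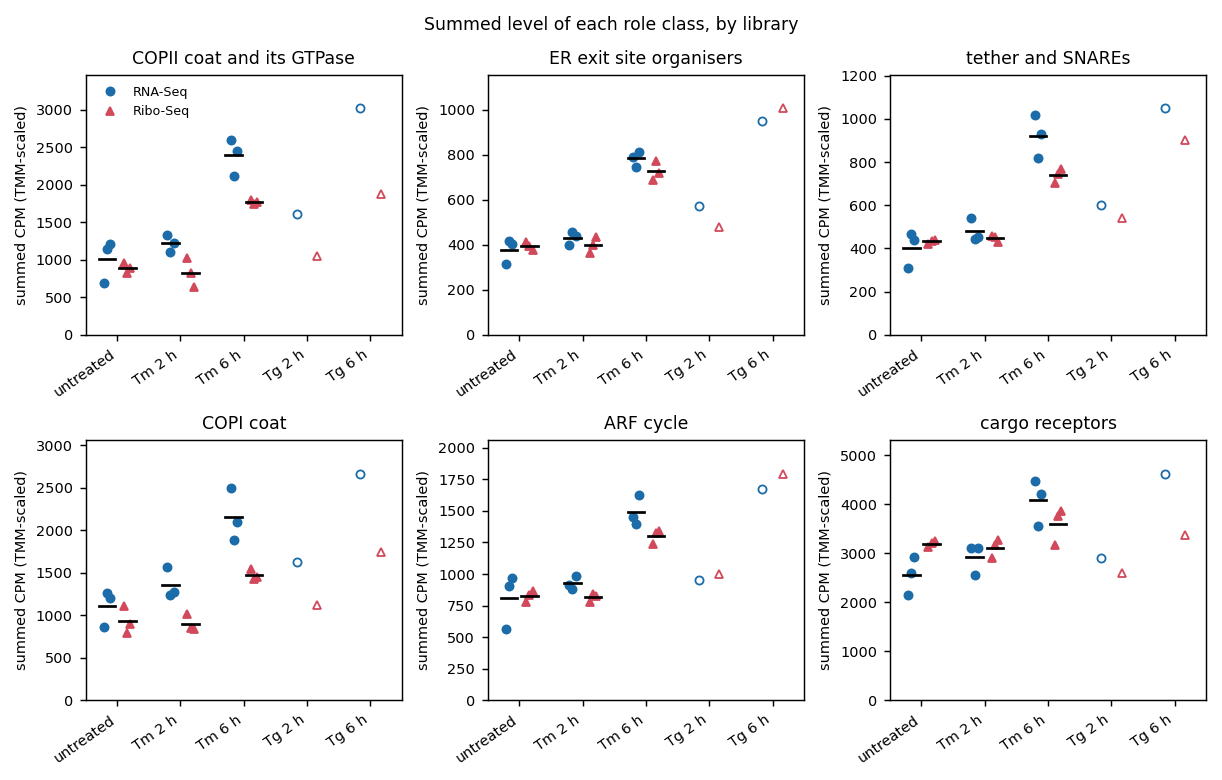
Summed TMM-scaled CPM of each role class in every library (vertical axis, from 0) by group (horizontal axis; Tm, tunicamycin; Tg, thapsigargin). Blue circles are RNA-Seq and red triangles Ribo-Seq libraries, black lines are means of 3 libraries, and open symbols mark groups of 1 library. The sums at 6 h of either drug lie above the untreated ones in RNA-Seq for each class, while cargo receptor footprints differ least.

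In the COPII coat, 3 of 10 genes were called higher at the mRNA level: SEC24D, SEC23B and SEC31A. SEC24D, a cargo-binding subunit of the inner coat, was at 486, 497 and 594 CPM in Tm 6 h libraries, against 36.0, 116 and 131 CPM in untreated libraries. Its log2 fold change of 2.48 (SE 0.42) was the highest of the 48 genes (edgeR adjusted p = 0.0189), and the untreated libraries themselves differed widely. SEC23B, which activates the GTPase of SAR1 within the inner coat, was at 529, 303 and 384 CPM at Tm 6 h, against 79.0, 106 and 96.5 CPM in untreated cells, a log2 fold change of 2.11 (SE 0.29, edgeR adjusted p = 0.00729). SEC31A, the rod of the outer cage, had means of 395 ± 34.4 CPM in Tm 6 h libraries and 149 ± 33.6 CPM in untreated libraries (SD, n = 3 each), a log2 fold change of 1.40 (SE 0.23). All 3 Tm 6 h libraries lay above all 3 untreated libraries for each of these genes.

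Their close relatives did not pass this test, although SEC24A and SEC24C were called with the replicate block (edgeR adjusted p = 0.0240 and 0.0147). SEC23A, the other SEC23, was at 161, 102 and 119.6 CPM in Tm 6 h libraries, against 65.8, 73.7 and 80.5 CPM in untreated libraries. SEC24A was at 232, 253 and 292 CPM at Tm 6 h, against 69.2, 155 and 175 CPM in untreated cells. SEC24C was at 94.7, 83.0 and 90.9 CPM at Tm 6 h, against 39.5, 56.9 and 47.8 CPM in untreated cells. These 3 genes were also higher in every Tm 6 h library than in every untreated library, with log2 fold changes of 0.80, 0.96 and 0.90. SEC24B, another cargo-binding subunit, was at 50.9, 55.7 and 57.3 CPM at Tm 6 h, against 39.8, 66.1 and 75.7 CPM in untreated cells, with overlapping groups and a log2 fold change of -0.15 (SE 0.25). The GTPase genes overlapped between groups too. SAR1A was at 180.0, 148 and 177 CPM in Tm 6 h libraries and 94.2, 140.2 and 162 CPM in untreated libraries. SAR1B was at 207, 162 and 176 CPM in Tm 6 h libraries and 75.4, 153 and 163 CPM in untreated libraries. In both, untreated replicate 1 was the low library. SEC13, of the outer cage, had a log2 fold change of 0.89 (SE 0.28) and was not called, although its groups were apart. The class median log2 fold change was 0.89.

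Of the 5 exit site organisers, MIA2 and PREB were called higher. MIA2, a partner of MIA3 in the export of large cargo such as collagen, was at 10.3, 9.30 and 11.3 CPM in the Tm 6 h libraries, against 2.95, 2.50 and 2.42 CPM in the untreated libraries. Its log2 fold change of 1.97 (SE 0.24) had the smallest p of the 48 genes (edgeR adjusted p = 0.00299), and its groups were far apart. PREB, the exchange factor that loads SAR1 with GTP, was at 154, 111 and 132 CPM at Tm 6 h, against 33.8, 48.6 and 38.7 CPM in untreated cells, a log2 fold change of 1.71 (SE 0.24, edgeR adjusted p = 0.00713). The gene of PREB overlaps ABHD1 and that of MIA2 overlaps MIA2-AS1, and with no strand setting given their reads cannot be told apart. In all, 20 of the 48 genes overlap a protein-coding or long noncoding RNA gene, among them BET1, SEC31A, SEC23A, SEC24B and ERGIC1. TFG, MIA3 and the scaffold SEC16A did not pass the test, with log2 fold changes of 1.10, 1.05 and 0.74. With the replicate block all 3 were called (edgeR adjusted p = 0.0200, 0.0088 and 0.0479), which made 5 of 5. The class median was 1.10.

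Of the tether and SNARE genes, 5 of 7 were called higher, without or with the replicate block: BET1, STX5, USO1, GOSR2 and SEC22B. BET1, a SNARE of ER-derived vesicles, was at 80.9, 41.8 and 56.4 CPM in Tm 6 h libraries, against 14.3, 14.0 and 13.1 CPM in untreated libraries, and the untreated values were close to each other. STX5, the syntaxin of the early Golgi, was at 67.5, 57.7 and 66.3 CPM at Tm 6 h, against 17, 23.2 and 24.1 CPM in untreated cells. USO1, which tethers COPII vesicles before fusion, was at 219, 142 and 175 CPM at Tm 6 h, against 65.5, 65.2 and 62.2 CPM in untreated cells. GOSR2, a Golgi SNARE that pairs with STX5, was at 182, 163 and 182 CPM at Tm 6 h, against 49.1, 77.7 and 74.3 CPM in untreated cells. In each of these the Tm 6 h libraries all exceeded the untreated ones. The log2 fold changes were 2.12 (SE 0.31) for BET1, 1.58 (SE 0.22) for STX5, 1.48 (SE 0.23) for USO1 and 1.39 (SE 0.23) for GOSR2. Their edgeR adjusted p-values were 0.00856, 0.00656, 0.0127 and 0.0156 in the same order. SEC22B, which also has pseudogene copies, had a log2 fold change of 1.37. YKT6 and GOSR1 did not pass, at 0.76 and 0.52, although in both the groups did not overlap. The class median of 1.39 was the highest of the 6 classes. Only STX5 among these 7 held the UPRE letters in its promoter window, and the gene of GOSR2 overlaps LRRC37A2.

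**Figure D2:**
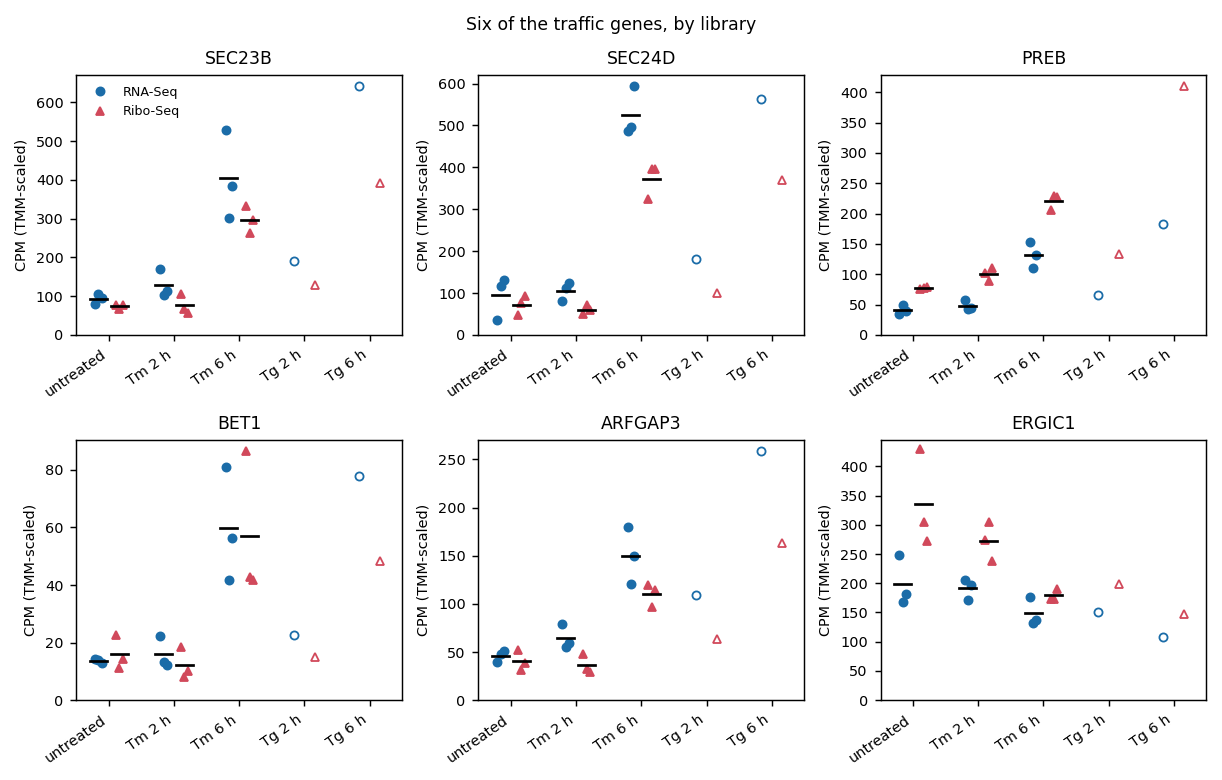
CPM of SEC23B, SEC24D, PREB, BET1, ARFGAP3 and ERGIC1 in every library (vertical axes, TMM-scaled, from 0) by group. Blue circles are RNA-Seq and red triangles Ribo-Seq, black lines are means of 3 libraries, and open symbols mark single libraries. The first 5 genes are high at 6 h of either drug in both assays and ERGIC1 is not.

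In the COPI coat 1 of 8 genes was called higher. COPG1, the main gamma subunit of coatomer, was at 336, 247 and 269.9 CPM in Tm 6 h libraries, against 102, 140.2 and 138 CPM in untreated libraries, a log2 fold change of 1.17 (SE 0.23, edgeR adjusted p = 0.0369). Its paralog COPG2 was at 45.0, 45.3 and 45.3 CPM at Tm 6 h, against 40.3, 50.8 and 51.3 CPM in untreated cells, with overlapping groups and a log2 fold change of -0.069 (SE 0.20). The COPG2 gene overlaps MEST and TSGA13. The other subunits, COPA, COPB1, COPB2, ARCN1, COPE and COPZ1, had log2 fold changes of 0.56 to 1.12, and in all 6 the Tm 6 h libraries lay above the untreated ones without a call. ARCN1, the delta subunit, missed the threshold narrowly (edgeR adjusted p = 0.0513). With the replicate block COPA, COPB1 and ARCN1 were called beside COPG1. The class median was 0.99.

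In the ARF cycle 1 of 6 genes was called higher. ARFGAP3, which stimulates GTP hydrolysis by ARF, was at 179, 120.2 and 150.1 CPM in Tm 6 h libraries, against 39.3, 48 and 51.4 CPM in untreated libraries, a log2 fold change of 1.70 (SE 0.24, edgeR adjusted p = 0.00831). ARFGAP1, another such activator, was at 144, 197 and 230.4 CPM at Tm 6 h, against 102, 122 and 128 CPM in untreated cells, a log2 fold change of 0.70 (SE 0.23). ARF1, ARF4, their exchange factor GBF1 and ARFGAP2 had log2 fold changes of 0.71 to 1.16. None of these 5 passed the test, while ARF1, ARF4, GBF1 and ARFGAP2 were called with the replicate block, which made 5 of 6 genes. All 6 genes of the class were higher in every Tm 6 h library. The class median was 0.75.

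Among the cargo receptors 2 of 12 were called higher, TMED7 and LMAN1. TMED7, of the family that sorts membrane cargo, was at 579, 377 and 480.0 CPM in Tm 6 h libraries, against 128, 170.2 and 208 CPM in untreated libraries, a log2 fold change of 1.50 (SE 0.27, edgeR adjusted p = 0.0247). The gene of TMED7 overlaps the readthrough TMED7-TICAM2. LMAN1, the lectin receptor of coagulation factors, had a log2 fold change of 1.20 (SE 0.25, edgeR adjusted p = 0.0491), while its partner MCFD2 was at 0.88 and did not pass. The other receptors ranged up to 0.97 for TMED2, and TMED2, TMED9 and SURF4 were called with the replicate block. ERGIC1 had the lowest value of all 48 genes: it was at 177, 132 and 137 CPM in Tm 6 h libraries, against 248, 169 and 181 CPM in untreated libraries, a log2 fold change of -0.43 (SE 0.23) that was not called. The receptors had the lowest class median, 0.55, and 6 of the 12 had non-overlapping groups.

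**Figure D3:**
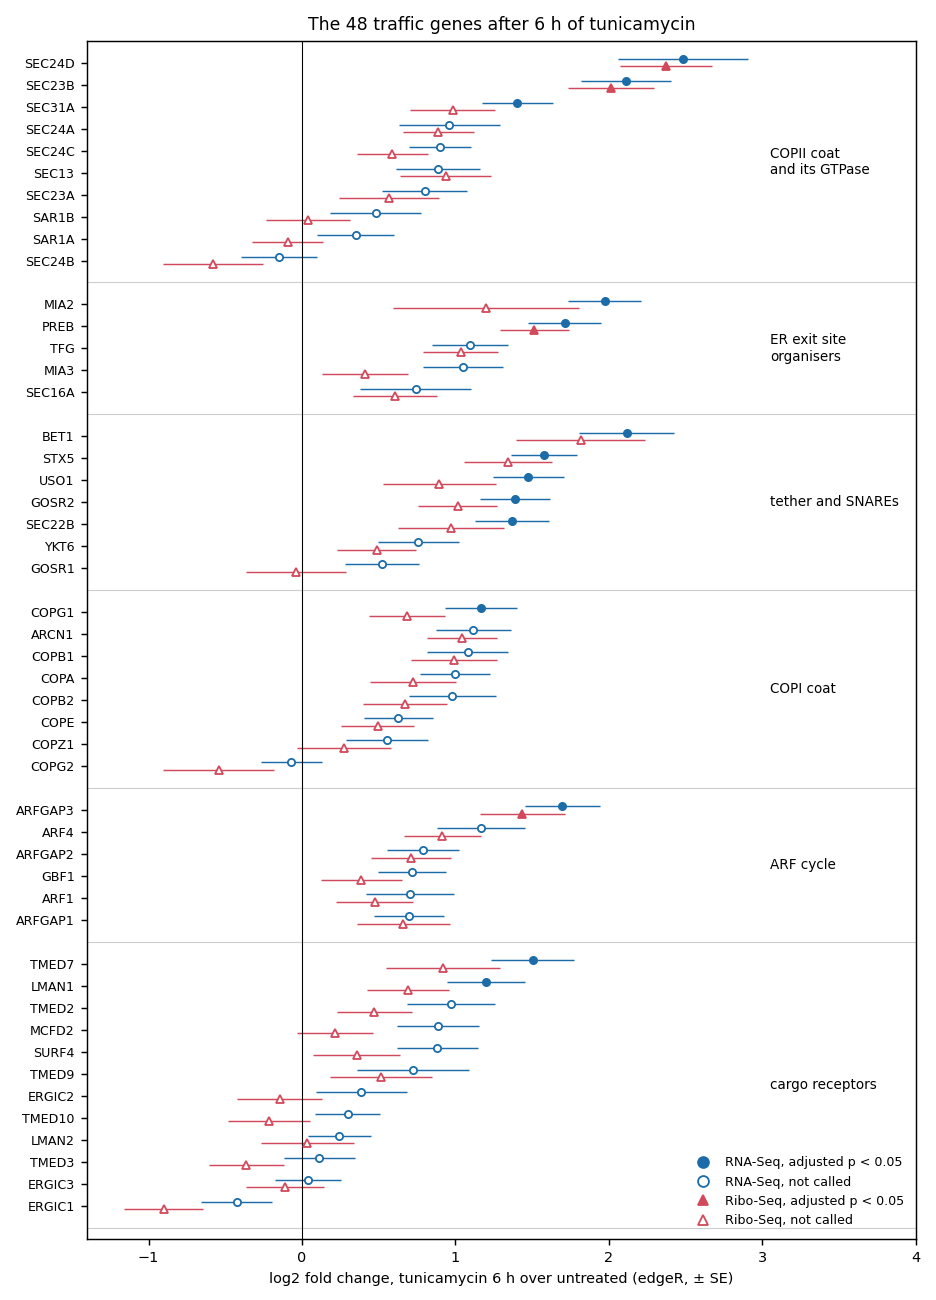
Log2 fold change of each of the 48 genes at 6 h of tunicamycin over untreated (horizontal axis; bars are the standard error of the edgeR fit), grouped by role. Blue circles are RNA-Seq, red triangles Ribo-Seq, and filled symbols passed an adjusted p under 0.05. The called mRNAs sit at the top of each class, and SEC24B, COPG2 and ERGIC1 lie below 0 in both assays.

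Footprints after 6 h of tunicamycin were led by SEC24D and SEC23B. All 48 summed to 9127, 9784 and 9907 CPM in the Tm 6 h libraries, against 6822, 6486 and 6717 CPM in the untreated libraries. Of the 48 genes, 4 were called higher (SEC24D, SEC23B, PREB and ARFGAP3) and 0 lower, against 0.67% higher and 0.17% lower among the 19411 genes tested. With the replicate block 11 were higher, against 1.7% of all genes: the same 4 and SEC24A, SEC31A, TFG, STX5, BET1, COPB1 and ARCN1. With replicates 2 and 3 alone 14 were higher, against 1.95% of all genes. The median log2 fold change was 0.63, beside -0.068 over all genes, and 39 of the 48 were positive. In 27 genes every Tm 6 h library lay above every untreated library, against 9.54% of all genes, and in 2 genes, SEC24B and ERGIC1, every one lay below, against 11.1% of all genes. The count was 7 without untreated replicate 1, 1 without untreated replicate 2, and 2 without any one of untreated replicate 3, Tm 6 h replicate 2 or Tm 6 h replicate 3.

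SEC24D footprints were at 325, 397 and 397 CPM in Tm 6 h libraries, against 46.7, 75.7 and 93.8 CPM in untreated libraries, a log2 fold change of 2.37 (SE 0.30, edgeR adjusted p = 0.00306). For SEC23B they were at 332, 263 and 295 CPM at Tm 6 h, against 77.6, 65.7 and 77.3 CPM in untreated cells, a log2 fold change of 2.01 (SE 0.28, edgeR adjusted p = 0.0059). PREB had 206, 228 and 227 CPM at Tm 6 h, against 74.9, 77.2 and 79.6 CPM in untreated cells, with a log2 fold change of 1.51 (SE 0.23, edgeR adjusted p = 0.00806). Replicates of PREB were close within both groups. ARFGAP3 had 119.7, 97.2 and 114 CPM at Tm 6 h, against 51.6, 31.5 and 39.1 CPM in untreated cells, with a log2 fold change of 1.44 (SE 0.28, edgeR adjusted p = 0.0323). In all 4 genes the groups were apart. On GRCh38.p14 in RefSeq, SEC24D lies at chr4:118722823-118836126, SEC23B at chr20:18507548-18561415, PREB at chr2:27130756-27134636 and ARFGAP3 at chr22:42796502-42857273.

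The other genes that led at the mRNA level did not pass the footprint test without the block. BET1 was at 86.5, 42.7 and 41.7 CPM in Tm 6 h libraries, against 22.7, 11.1 and 14.5 CPM in untreated libraries (log2 fold change 1.82, SE 0.42). STX5 was at 77.8, 96.1 and 122 CPM at Tm 6 h, against 33.4, 38.7 and 44.8 CPM in untreated cells (log2 fold change 1.34, SE 0.29). GOSR2 was at 101, 113 and 106 CPM at Tm 6 h, against 44.1, 58.6 and 55.9 CPM in untreated cells (log2 fold change 1.01, SE 0.26). In these 3 genes the Tm 6 h libraries were all above the untreated ones, with edgeR adjusted p-values of 0.0752, 0.0546 and 0.109. USO1 was at 109.8, 90.1 and 118 CPM at Tm 6 h, against 94.9, 30.3 and 45.3 CPM in untreated cells, and untreated replicate 1 reached into the Tm 6 h range. MIA2 was at 6.69, 5.60 and 2.68 CPM at Tm 6 h, against 1.21, 2.87 and 2.48 CPM in untreated cells, from only 10 to 66 footprint counts per library of any group, and its groups overlapped. TMED7 had 226, 298 and 309 CPM at Tm 6 h, against 186, 133 and 122 CPM in untreated cells (log2 fold change 0.92, SE 0.37). COPG1 had 197, 195 and 182 CPM at Tm 6 h, against 155, 94.5 and 108 CPM in untreated cells (log2 fold change 0.68, SE 0.25). In both of these genes the groups were apart without a call.

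Of the remaining COPII genes, SEC31A and SEC13 had footprint log2 fold changes of 0.98 (SE 0.28) and 0.94 (SE 0.30). Neither passed without the block, and in both the groups were apart. SEC23A footprints were at 121, 94.1 and 108 CPM in Tm 6 h libraries, against 96.4, 53.8 and 67.9 CPM in untreated libraries. SEC24A had 181, 213 and 203 CPM at Tm 6 h, against 116, 104 and 102 CPM in untreated cells. SEC24C had 108, 113 and 96.0 CPM at Tm 6 h, against 83.1, 57.2 and 70.2 CPM in untreated cells. SEC24A and SEC24C were apart between groups and SEC23A was not. SEC24B had 45.4, 37.0 and 38.7 CPM at Tm 6 h, against 78.9, 50.7 and 51.2 CPM in untreated cells, lower in all 3 Tm 6 h libraries but not called (log2 fold change -0.58, SE 0.33). SAR1A had 87.6, 101 and 102 CPM at Tm 6 h, against 119, 97.5 and 94.0 CPM in untreated cells. SAR1B had 115, 115 and 104 CPM at Tm 6 h, against 108, 119.9 and 97.8 CPM in untreated cells. The SAR1 genes overlapped between groups, with log2 fold changes of -0.095 and 0.039.

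COPG2 footprints were at 42.8, 27.4 and 32.4 CPM in Tm 6 h libraries and 79.7, 30.4 and 38.9 CPM in untreated libraries, where replicate 1 was high. ARFGAP1 had 101, 182 and 166 CPM at Tm 6 h, against 68.8, 106 and 109.6 CPM in untreated cells, also with overlap. The cargo receptors had no called gene among 12 and a class median of 0.12, the lowest of the 6 classes, beside 0.74 for the COPII coat, 1.03 for the exit site organisers, 0.97 for the tether and SNAREs, 0.68 for the COPI coat and 0.68 for the ARF cycle. ERGIC1 was again lowest, at 174, 173 and 191 CPM in Tm 6 h libraries, against 429, 304 and 272 CPM in untreated libraries. Its log2 fold change was -0.90 (SE 0.26) and was not called by edgeR (adjusted p = 0.167), while DESeq2 called it lower (log2 fold change -0.86, adjusted p = 0.0229).

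**Figure D4:**
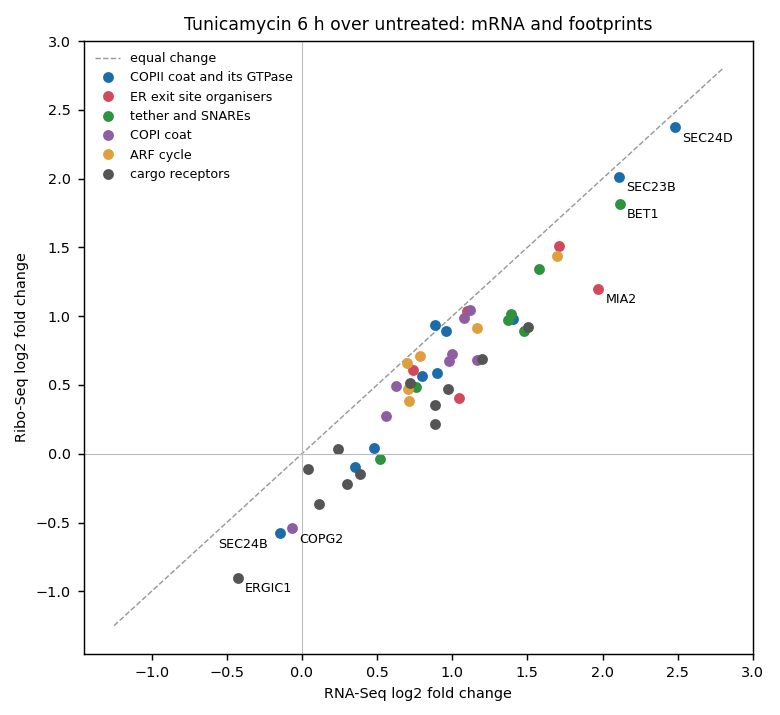
Ribo-Seq against RNA-Seq log2 fold change at 6 h of tunicamycin over untreated for the 48 genes, coloured by role class. The dashed line marks equal change in both assays. Of the 48 genes, 47 lie below the line, and SEC24D is highest on both axes. The assays were scaled separately, and no share of all genes below the line was taken.

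Across the 48 genes the log2 fold changes in mRNA and footprints had a Pearson r of 0.956 and a Spearman rho of 0.922, a description over genes, which are not independent replicates and share the scaling of their libraries. The footprint value was the lower of the pair in 47 of 48 genes, by a median of -0.30. These fold changes come from separate fits, scaled over 41130 genes in RNA-Seq and 19411 in Ribo-Seq. No share of all genes stands beside this count, and the part of the separate scaling in it was not tested. Translational efficiency, the change in footprints relative to mRNA, was tested as an interaction in 1 joint model of both assays. At 6 h of tunicamycin over untreated, 0 of 48 genes passed, as did 0% of the 18500 genes tested (edgeR, unadjusted p under 0.05 in 0 of the 48 and in 706 of all genes, and DESeq2 called 0 of the 48 and 5 of all genes). The median log2 change in translational efficiency was -0.21 for the 48 genes and -0.077 for all genes, with 42 of 48 negative. It was -0.062 for the 48 genes without untreated replicate 1 of both assays, with 19 of 48 positive. The cargo receptors had the lowest class median, -0.40, with 12 of 12 negative and the lowest value, -0.60, in MCFD2. With the replicate block ERGIC3 was positive, at 0.031. The other receptors were negative there, from -0.014 in LMAN2 to -0.54 in MCFD2. No share of all genes stands beside the counts of negative genes.

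At 2 h of tunicamycin no traffic gene passed the test in either assay. In RNA-Seq 0 of 48 passed, against 0.00973% of all genes, or 4 genes (edgeR). Among the 48, only STX5 had an unadjusted p under 0.05: it was at 27.2, 29.3 and 34.2 CPM in Tm 2 h libraries, against 17, 23.2 and 24.1 CPM in untreated libraries, and the groups did not overlap. In 8 genes every Tm 2 h library lay above every untreated library, against 3.44% of all genes: SEC24C, USO1, STX5, SEC22B, COPA, COPG1, ARFGAP2 and ARFGAP3. DESeq2 called 0 of the 48. The median log2 fold change was 0.23, beside -0.17 over all genes, and 44 of 48 were positive. Without untreated replicate 1 the medians were 0.12 and 0.039.

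In footprints at 2 h, 0 of 48 genes passed, as did 0% of all genes, although 619 of all genes and 1 of the 48 had an unadjusted p under 0.05 in edgeR, and DESeq2 called 3 of all genes and 0 of the 48. That 1 gene was USO1, at 39.5, 32.0 and 25.5 CPM in Tm 2 h libraries and 94.9, 30.3 and 45.3 CPM in untreated libraries, where replicate 1 was high. PREB was the 1 gene with every Tm 2 h library above every untreated one, against 2.58% of all genes, at 102, 88.4 and 110.0 CPM in Tm 2 h libraries and 74.9, 77.2 and 79.6 CPM in untreated libraries. The median over the 48 was -0.11, with 21 positive. For translational efficiency at 2 h, 0 of 48 and 0% of all genes passed (edgeR, unadjusted p under 0.05 in 0 of the 48 and in 740 of all genes, and DESeq2 called 0 of the 48 and 13 of all genes).

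The 2 tunicamycin times were then compared directly, in the same fits, so that the untreated and thapsigargin libraries entered the scaling and the estimate of spread. In RNA-Seq 8 of 48 genes were higher at 6 h and 0 lower, against 0.588% higher and 0.153% lower of all genes (edgeR): MIA2 (log2 fold change 2.03), BET1 (1.90), PREB (1.47), SEC23B (1.66), USO1 (1.27), SEC24D (2.32), GOSR2 (1.18) and SEC31A (1.19). With the replicate block 19 were higher, against 3.61% of all genes. With replicates 2 and 3 alone 37 were higher, against 12.6% of all genes, and ERGIC1 was lower (log2 fold change -0.45, edgeR adjusted p = 0.0105). Fitted on the libraries of the 2 times only, 12 were higher. MIA2 was at 10.3, 9.30 and 11.3 CPM at 6 h and 2.39, 2.93 and 2.22 CPM at 2 h, with no overlap. SEC23B was at 529, 303 and 384 CPM at 6 h and 169, 103 and 113 CPM at 2 h. SEC24D was at 486, 497 and 594 CPM at 6 h and 82.1, 112 and 123 CPM at 2 h. In each of these the libraries of the 2 times were apart. The count was 0 without Tm 2 h replicate 3, 1 without any one of Tm 2 h replicate 2, Tm 6 h replicate 1 or Tm 6 h replicate 3, 4 without Tm 6 h replicate 2 and 6 without Tm 2 h replicate 1.

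Footprints of 5 genes were higher at 6 h than at 2 h and 0 lower, against 0.608% higher and 0.144% lower of all genes: SEC24D (log2 fold change 2.63), SEC23B (1.96), ARFGAP3 (1.58), BET1 (2.20) and PREB (1.14). With the replicate block 12 were higher, against 1.67% of all genes, and with replicates 2 and 3 alone 19 were higher, against 2.58% of all genes. Fitted on the libraries of the 2 times only, 5 were called, and BET1 was not among them. SEC24D, with the smallest p, had footprints at 325, 397 and 397 CPM at 6 h and 50.4, 71.5 and 58.8 CPM at 2 h (edgeR adjusted p = 0.00213). BET1 had 86.5, 42.7 and 41.7 CPM at 6 h and 18.6, 8.11 and 10.1 CPM at 2 h (edgeR adjusted p = 0.036). ARFGAP3 had 119.7, 97.2 and 114 CPM at 6 h and 48.1, 32.7 and 29.6 CPM at 2 h. The times were apart for all 3. The count was 1 without Tm 2 h replicate 2 and 2 without any one of Tm 2 h replicate 3 or the 3 Tm 6 h replicates. For translational efficiency between the times, 0 of 48 and 0% of all genes passed (edgeR, unadjusted p under 0.05 in 1 of the 48, MIA2, and in 430 of all genes, and DESeq2 called 0 of the 48 and 8 of all genes).

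Thapsigargin was measured with 1 library per time and assay and therefore no test. The untreated libraries are those of the tunicamycin comparisons, and the part of the lower mitochondrial mRNA share of the thapsigargin RNA-Seq libraries in these values was not tested. RNA-Seq shares and medians of all genes cover 41130 genes, here as for tunicamycin. The fit with the replicate block, made without the thapsigargin libraries, kept 29330. Untreated replicate 1, with counts in 53489 entries, is among the untreated libraries. Its part in the thapsigargin values of all genes was not tested. At 6 h, 25 of 48 mRNAs were at least 2-fold higher than in untreated cells by the fitted fold change, against 9.64% of all genes, and 0 were at least 2-fold lower, against 38.7% of all genes. SEC23B was at 643 CPM in the Tg 6 h library, against 79.0, 106 and 96.5 CPM in untreated libraries, the highest log2 difference of the 48 at 2.77. SEC24D was at 562 CPM at Tg 6 h, against 36.0, 116 and 131 CPM in untreated cells. BET1 was at 77.9 CPM at Tg 6 h, against 14.3, 14.0 and 13.1 CPM in untreated cells. ARFGAP3 was at 259 CPM at Tg 6 h, PREB at 183 CPM at Tg 6 h, MIA2 at 11.6 CPM at Tg 6 h and TMED7 at 735 CPM at Tg 6 h, each above all of its untreated libraries. SEC23A, which did not pass the tunicamycin test, was at 257 CPM at Tg 6 h, against 65.8, 73.7 and 80.5 CPM in untreated cells. ERGIC1 was lowest, at 109 CPM at Tg 6 h, against 248, 169 and 181 CPM in untreated cells, and COPG2 next, at 30.4 CPM at Tg 6 h, against 40.3, 50.8 and 51.3 CPM in untreated cells. Both lay below all 3 untreated libraries.

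In footprints at 6 h of thapsigargin, 20 of 48 genes were at least 2-fold higher, against 12.5% of all genes, and 3 were at least 2-fold lower, against 30.1% of all genes: COPG2 (-1.19 on the log2 scale), ERGIC1 (-1.19) and SEC24B (-1.08). SEC23B was at 393 CPM in the Tg 6 h library, against 77.6, 65.7 and 77.3 CPM in untreated libraries. PREB was at 410.3 CPM at Tg 6 h, against 74.9, 77.2 and 79.6 CPM in untreated cells. STX5 was at 161 CPM at Tg 6 h, against 33.4, 38.7 and 44.8 CPM in untreated cells. These 3 lay above all untreated libraries. The 12 cargo receptors held 0 of the 20 genes and had a median log2 difference of -0.024, while the ARF cycle held 5 of its 6 genes and had a median of 1.09. TMED7 differed between the assays in these single libraries. Its mRNA was at 735 CPM in the Tg 6 h library, against 128, 170.2 and 208 CPM in untreated libraries, and its footprints were at 144 CPM at Tg 6 h, against 186, 133 and 122 CPM in untreated cells. The footprint value was inside the untreated range.

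At 2 h of thapsigargin, 2 of 48 mRNAs were at least 2-fold higher, ARFGAP3 (1.24 on the log2 scale) and SEC23B (1.02), against 6.7% of all genes. ARFGAP3 was at 109 CPM in the Tg 2 h library, against 39.3, 48 and 51.4 CPM in untreated libraries. The median over the 48 genes was 0.51, beside -0.38 over all genes. In footprints 0 of 48 were at least 2-fold higher, against 9.12% of all genes, and the median was 0.16. Of the 12 cargo receptors, 10 had negative footprint values at 2 h, with a class median of -0.32, and 9 lay below every untreated library, against 26.3% of all genes. ERGIC2 had the lowest, -0.94, at 40.0 CPM in the Tg 2 h library, against 100.1, 64.2 and 66.2 CPM in untreated libraries.

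Within 4 of 6 pairs of related genes, the balance at 6 h of tunicamycin lay outside its untreated range in both assays. Other gene pairs were not read, so no share over pairs in general stands beside this count. The ratios rest on the same counts as the fold changes above and are not a separate result. The log2 ratio of their counts, in which library scaling cancels, was compared between 6 h of tunicamycin and untreated cells by a two-sided exact permutation test, whose smallest possible p with 3 against 3 libraries is 0.1. The 12 ratios (6 pairs in 2 assays) were adjusted together, so no adjusted p could be under 0.05. For SEC23B over SEC23A in RNA-Seq the log2 ratio was 1.72, 1.56 and 1.68 in Tm 6 h libraries, against 0.26, 0.53 and 0.26 in untreated libraries, a difference of 1.30. In footprints this ratio was 1.46, 1.48 and 1.44 at Tm 6 h, against -0.31, 0.29 and 0.19 in untreated cells, a difference of 1.41. The ratio was higher in each Tm 6 h library than in any untreated one in both assays. SEC24D over SEC24C was, in RNA-Seq, 2.36, 2.58 and 2.71 at Tm 6 h, against -0.13, 1.02 and 1.45 in untreated cells, a difference of 1.77. The footprint ratio of this pair was 1.59, 1.82 and 2.05 at Tm 6 h, against -0.83, 0.40 and 0.42 in untreated cells, a difference of 1.82. The untreated libraries of this pair were spread widely, replicate 1 being the lowest. SEC24A over SEC24B was, in RNA-Seq, 2.19, 2.18 and 2.35 at Tm 6 h, against 0.80, 1.23 and 1.21 in untreated cells, a difference of 1.16. Its footprint ratio was 1.99, 2.53 and 2.39 at Tm 6 h, against 0.55, 1.04 and 1.00 in untreated cells, a difference of 1.44. In these 6 comparisons the groups did not overlap, and each had an exact p of 0.1 (adjusted 0.133).

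COPG2 over COPG1 differed in the other direction and was, in RNA-Seq, -2.90, -2.44 and -2.57 at Tm 6 h, against -1.34, -1.46 and -1.43 in untreated cells, a difference of -1.23. In footprints it was -2.20, -2.83 and -2.49 at Tm 6 h, against -0.96, -1.64 and -1.47 in untreated cells, a difference of -1.15. Both were apart between groups (exact permutation p = 0.1, adjusted 0.133). ARFGAP3 over ARFGAP1 was, in RNA-Seq, 0.31, -0.72 and -0.62 at Tm 6 h, against -1.38, -1.34 and -1.32 in untreated cells, a difference of 1.01. The groups were apart here too (exact p = 0.1, adjusted 0.133). Footprints of this pair had a ratio of 0.24, -0.91 and -0.54 at Tm 6 h, against -0.42, -1.75 and -1.49 in untreated cells, a difference of 0.82. These groups overlapped (exact p = 0.3), and ARFGAP3 was not set against ARFGAP2. For SAR1B over SAR1A the groups overlapped in both assays, with differences of 0.17 (exact p = 0.4) and 0.13 (exact p = 0.5). The single Tg 6 h libraries had log2 ratios of 1.32 for SEC23B over SEC23A, 2.86 for SEC24D over SEC24C and -3.42 for COPG2 over COPG1 in RNA-Seq.

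**Figure D5:**
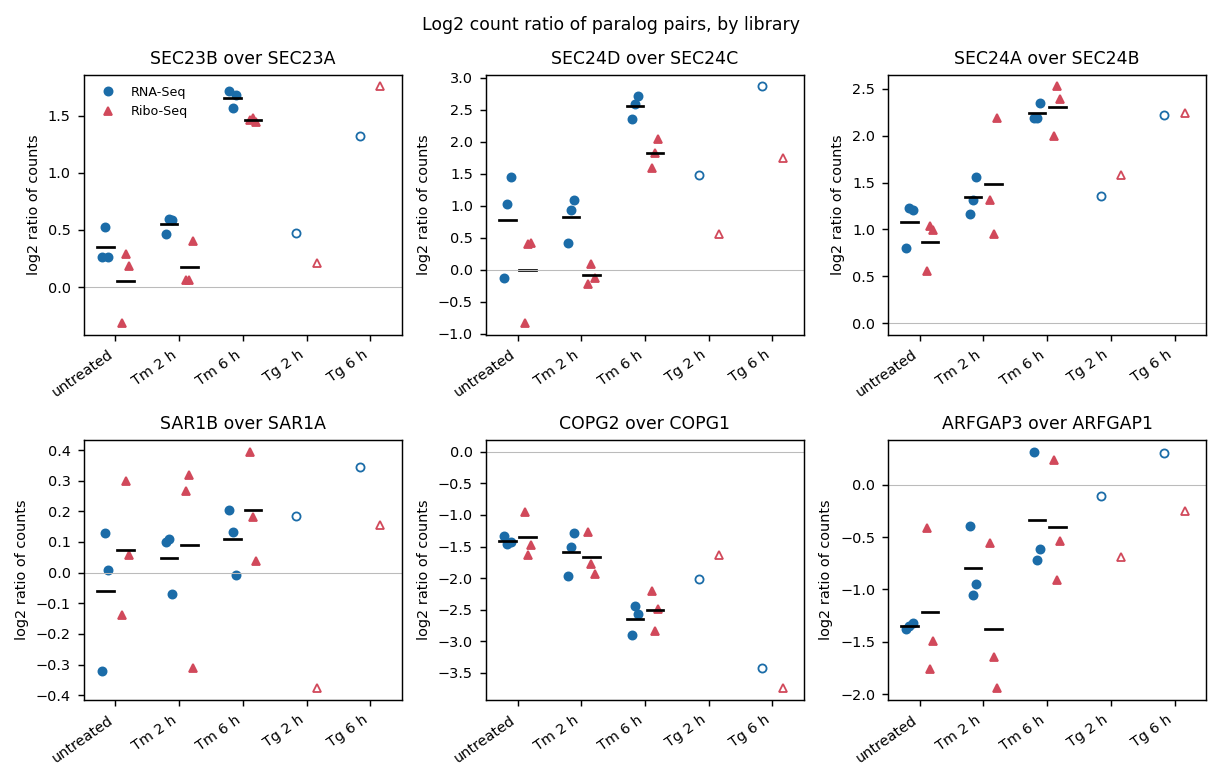
Log2 ratio of counts within 6 pairs of related genes in every library (vertical axes) by group. Blue circles are RNA-Seq and red triangles Ribo-Seq, black lines are means of 3 libraries, and open symbols mark single libraries. The ratios of SEC23B, SEC24D and SEC24A over their relatives are higher at 6 h of tunicamycin than untreated in both assays, COPG2 over COPG1 is lower, and SAR1B over SAR1A overlaps.

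Changes were also set beside the UPRE letters. Of the 11 called mRNAs at 6 h of tunicamycin whose promoter window was in the table, 1, STX5, held TGACGTGG, which is 1 of 9 genes with the letters and 10 of 32 without. With the replicate block this turned, with 7 of 9 called among the genes with the letters and 17 of 32 among those without. The 9 genes with the letters had a median log2 fold change of 0.96 in RNA-Seq, within 0.71 to 1.58, and the 32 genes without had a median of 0.89, within -0.15 to 2.12. In footprints the medians were 0.67 with the letters and 0.49 without. These values were not tested.

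Beyond the 48, a list of 49 further ER and Golgi genes (RAB and TRAPP genes, tethers, other SNAREs and KDEL receptors among them) was read in the same fits. In RNA-Seq at 6 h of tunicamycin, 4 of 49 were higher and 0 lower, beside the 1.23% of all genes given above, with a median log2 fold change of 0.39. They were TMED5 (1.23), GOLGB1 (1.51), YIPF5 (1.23) and BET1L (1.21). In footprints 2 of 48 tested were higher, against 0.67% of all genes, with a median of 0.098. They were the Golgi stacking gene GORASP2 (1.25) and BET1L (1.18).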

How the data were processed

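RNA-Seq and Ribo-Seq of LN308 cells were taken as the counts the authors deposited: whole numbers of reads per Ensembl gene, 1 table per library. Build GRCh38 and the tools HTSeq, DESeq2 and STAR 2.5.4b are listed, without their roles, per the submitters' processing notes. Not given in the sources used here are the gene annotation, which features were counted and whether strand was used. For Ribo-Seq, cells received cycloheximide (0.1 mg/ml, 5 min) and fragments had 27 to 33 nt, per the labels' protocols. Cycloheximide can move ribosomes along mRNAs.

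Each library's group was read from its labels, as was its replicate number except for thapsigargin footprints, whose labels carry none. Members and gene lists were chosen with earlier results of these data known. Genes were kept by filterByExpr (minimum count 10), which left 41130 for RNA-Seq, 19411 for Ribo-Seq and 18500 for the joint model, scaled by TMM and tested with edgeR 4.0.16 (glmQLFit, robust, all groups of an assay in 1 fit) in R 4.3.3, with Benjamini-Hochberg adjustment and a threshold of 0.05. Translational efficiency was the assay by treatment interaction. Standard errors are the log2 fold change divided by the square root of F. Thapsigargin groups hold 1 library each, entered the fits and were described by a fitted change of at least 2-fold. Paralog ratios were tested by exact permutation (Python 3.11.15, SciPy 1.17.1). DESeq2 1.42.0, other scalings and filters, a replicate block and left-out libraries were tried as alternatives.

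Same-numbered libraries deviated together (correlation over 0.1 in every pair) in RNA-Seq for 6 h against untreated (0.168 to 0.384) and 6 h against 2 h (0.57 to 0.769), and in Ribo-Seq for all 3 comparisons (0.18 to 0.521), but not in RNA-Seq for 2 h against untreated (lowest 0.0815). No libraries of a group were alike within counting noise (chi-square per degree of freedom 25.8 to 543). The scripts were tested on simulated data. Every gene called in a comparison is named; values per library are given for the 8 called mRNAs with the smallest p at 6 h of tunicamycin, for the leading gene of each role class and of each other comparison, and for the 6 paralog pairs; the others are given by count and range, and a few more were named after their values were seen. Gene lengths were not used, so levels were not compared between genes.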

Additional observations from a re-analysis of the deposited data

How the results depend on the processing

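The number of the 48 genes called at 6 h of tunicamycin over untreated was 14 in RNA-Seq, with 29 under the replicate block, 29 in DESeq2, 38 with replicates 2 and 3 alone (37 higher, and ERGIC1 lower), and 6 to 20 when 1 library was left out. In footprints it was 4, with 7 without a filter on low counts, 11 under the replicate block, 15 in DESeq2, 14 with replicates 2 and 3 alone, and 1 to 7 when 1 library was left out. Between 6 h and 2 h it was 8 in RNA-Seq, with 19 under the replicate block and 21 in DESeq2. It was 38 with replicates 2 and 3 alone (37 higher, and ERGIC1 lower), and 0 to 6 when 1 library was left out. In footprints between these times it was 5, with 3 under scaling by library size alone, 11 without a filter, 12 under the replicate block, 20 in DESeq2, 19 with replicates 2 and 3 alone, and 1 to 5 when 1 library was left out. The replicate block changed no other count: 0 genes were called under it at 2 h in either assay and in translational efficiency. The cause of these differences was not tested. No share of all genes stands beside the counts here from DESeq2, other scalings or filters, or left-out libraries. These counts therefore compare settings only. Called mRNAs at 6 h over untreated that passed in each of the 6 fits without 1 library were SEC23B, PREB, MIA2, STX5, BET1 and ARFGAP3, and in footprints SEC24D. COPG1 and LMAN1 passed in 1 of those 6 fits each and SEC24D mRNA in 3, and in footprints SEC23B passed in 5, PREB in 2 and ARFGAP3 in 1. LMAN1 and USO1 mRNAs and ARFGAP3 footprints were also lost when scaled by library size alone. That scaling moved the median of all genes from -0.27 to -0.58 in RNA-Seq and the median of the 48 genes to 0.64. Of the 12 paralog differences, SAR1B over SAR1A changed sign with replicates 2 and 3 alone, to -0.0047 in RNA-Seq and -0.067 in Ribo-Seq. Footprint depth limits MIA2 most, at 10 to 66 counts per library.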
